A study of Homo sapiens with 14 samples.

Results

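RNA-seq read counts were compared between day 11 cultures given the highest concentration of CHIR99021 (CHIR) and the undifferentiated cells they came from. The 2 libraries labelled CHIR-boosting (7.5uM) at day 11 were set against the 2 labelled Human pluripotent stem cell, which makes 4 of the 14 libraries of the series. The cells of all libraries are H9 (WA-09), an established human embryonic line, so every difference described here was seen in 1 line. CHIR inhibits the kinase GSK3, which lets beta-catenin build up as it does when WNT ligands signal. The stem cells grew in Essential 8 medium on vitronectin at passages 35 to 55. The day 11 cells were plated on Geltrax and had, from day 0 to 3, 0.7 µM CHIR, the Sonic hedgehog protein SHH C25II, LDN and SB431542 (inhibitors of BMP and of TGF-beta and NODAL receptors) and the ROCK inhibitor Y-27632. From day 4 CHIR was raised to 7.5 µM, and LDN, SB431542 and SHH C25II were withdrawn on day 7. From day 10 the medium held 3 µM CHIR with BDNF, GDNF, ascorbic acid, TGF-beta 3 and dbcAMP. The cultures with CHIR left at 0.7 µM or raised to 3 or 5 µM had otherwise the same treatment, and are used here as 6 further libraries in the fit and, at 0.7 µM, as a side comparison. Stem cells differ from the day 11 cells in medium, coating, added factors and time together, so these cannot be told apart in this comparison.

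The 4 marker genes given for these cells matched their labels. POU5F1, which encodes the pluripotency factor OCT4, was at 412 and 474 CPM in the 2 stem cell libraries and at 0.437 and 0.327 CPM in the 2 day 11 libraries, where CPM is a gene's count over the library's total of counts in genes, in the usual unit, scaled by the trimmed mean of M-values (TMM). EN1, encoding Engrailed 1, a transcription factor of the caudal midbrain and the midbrain-hindbrain boundary, went from 0.0551 and 0 CPM to 116 and 86.7 CPM. OTX1, a transcription factor of forebrain and midbrain, went from 0.938 and 0.907 CPM to 57 and 59.7 CPM. TMEM132C, which encodes a transmembrane protein, went from 1.52 and 2.18 CPM to 393 and 308 CPM. In each case both libraries of one group lay above both of the other. Such separation was common: day 11 lay above for 6657 of the 19672 tested genes and below for 6460.

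Human pluripotent stem cells are held in their state by OCT4, NANOG and SOX2, which bind together at many regulatory elements and support each other's genes, while signalling by FGF and by activin or NODAL keeps the state stable. Blocking BMP and TGF-beta receptors turns these cells toward the neural plate. Along the head-to-tail axis of the neural plate WNT activity sets the level: low WNT leaves forebrain, more WNT gives midbrain, and still more gives hindbrain and spinal cord. OTX2 marks forebrain and midbrain, and the engrailed and PAX2, PAX5 and PAX8 genes with FGF8 and WNT1 mark the boundary between midbrain and hindbrain. Along the other axis, Sonic hedgehog induces the floor plate of the ventral midline, whose midbrain part expresses FOXA2, LMX1A and CORIN and gives rise to dopamine neurons.

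Counts assigned to genes came to 32290607 and 25059453 in the stem cell libraries, to 33668375 and 32078152 at 7.5 µM, and to 20524827 to 44758969 in the 10 libraries of the fit. Whether replicates were grown as independent cultures is not stated, and the p-values then reflect no more than how far these libraries vary, which may be technical. In edgeR's quasi-likelihood test, 856 of 19672 tested genes were higher in the day 11 cells than in the stem cells (4.35%) and 1122 were lower (5.7%), at a Benjamini-Hochberg adjusted p under 0.05. With a change of at least 4-fold as well, 695 were higher (3.53%) and 1009 lower (5.13%). The fit has few replicates and the calls rest on each of them: without stem cell replicate 1 or 2, 326 or 249 genes passed in all, and without 7.5 µM replicate 1 or 2, 402 or 404. The replicate numbers deviated together among the day 11 groups (correlations 0.7 to 0.92) but not with the stem cells (−0.15 to −0.23). With the replicate number as a block within day 11, 3274 genes were higher (16.6%) and 3564 lower (18.1%), all 1978 genes called without it among them. These are given below as calls with the block. The block takes the deviation that day 11 replicates share out of the error. The stem cells share none of it, so p-values against them leave out that spread and may be too small. The log2 difference between replicates had an SD of 0.593 at 7.5 µM and 0.325 in the stem cells. The sample descriptions carry codes that the day 11 replicates share by number and the stem cells do not share, so code and group cannot be told apart between stem cells and day 11. Between 7.5 and 0.7 µM CHIR at day 11, 0 of 18709 genes passed in edgeR's test when no block was used (657 did by DESeq2, and 1641 had an unadjusted p under 0.05), while with the block 1056 were higher (5.64%) and 911 lower (4.87%). Of these 1967 genes in all, the count ran from 754 without 0.7 µM replicate 1 to 5613 without 7.5 µM replicate 2. Which strand the libraries keep is not given, so reads of genes whose exons overlap on opposite strands cannot be told apart. This touches many genes below, such as POU5F1 with TCF19, TDGF1 with LRRC2, FOXA1 with TTC6 and CLDN7 with ELP5. Further cases are ZIC1 with ZIC4, LEF1 with its antisense RNA, FOXH1 with KIFC2 and TMEM30B with PRKCH. VIM, MYCN, ZNF503, DKK1, PAX5, PAX8, LMX1A, GBX2, CDH1, CDH2 and IDO1 overlap other transcripts in this way. The cases named are not all. In bulk RNA, fewer cells of a type and less RNA per cell cannot be told apart.

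**Figure D1:**
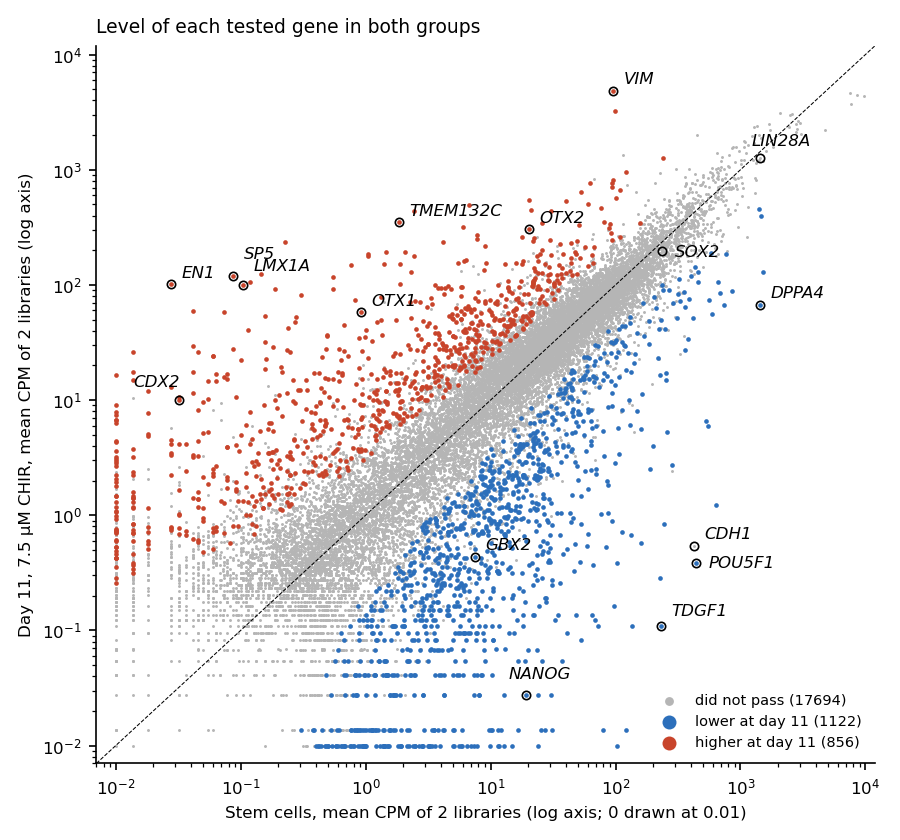
Each point is 1 of the 19672 tested genes, placed by its mean CPM over the 2 stem cell libraries (horizontal, log axis) and over the 2 libraries of day 11 at 7.5 µM CHIR (vertical, log axis), with a mean of 0 drawn at 0.01. Red points are the 856 genes called higher and blue points the 1122 called lower; EN1, SP5 and LMX1A sit far above the dashed line of equal level, TDGF1 and POU5F1 far below it, and SOX2 and LIN28A close to it.

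Most pluripotency factors were lower, POU5F1 and NANOG to near 0, while SOX2 did not pass. Of 17 transcription factor genes of pluripotency, 16 were tested, 11 were lower at day 11, each by at least 4-fold (12 lower with the block), and 1 was higher. The median fitted log2 fold change of the tested factors was −4.98, against 0.05 for all tested genes. POU5F1 fell by 10.16 on the log2 scale (SE 0.57, adjusted p = 0.000785). NANOG, a homeobox factor that holds cells in the pluripotent state, was at 13.6 and 24.6 CPM in the stem cells and at 0.0546 and 0 CPM at day 11, 671-fold (95% interval 185 to 5550) lower (adjusted p = 0.0135). PRDM14, a repressor of differentiation genes, went from 18.8 and 18.6 CPM to 0.0546 and 0.0545 CPM (log2 fold change −8.32 ± 0.83, adjusted p = 0.00229). All of these were near 0 in both day 11 libraries, at most 0.437 CPM. ZSCAN10, VENTX and FOXD3, further transcription factors of stem cells, were likewise below 0.2 CPM in each day 11 library, from 53.4 and 43.6 CPM, 6.84 and 5.08 CPM and 3.83 and 3.19 CPM. DPPA4, which encodes a chromatin-associated nuclear protein, fell but was still well detected: 1325 and 1538 CPM in the stem cells, 47 and 87.7 CPM at day 11 (log2 fold change −4.41 ± 0.63, adjusted p = 0.0066). The one factor called higher was OTX2, which serves both in pluripotent cells and in the anterior neural plate. SOX2, the partner of OCT4 and also a factor of neural progenitors, was at 266 and 208 CPM in the stem cells and at 193 and 199.7 CPM at day 11, and did not pass (log2 fold change −0.27 ± 0.48, adjusted p = 0.834). SALL4 (107 and 91.7 CPM, then 65.6 and 99.6 CPM) and MYCN (39 and 34 CPM, then 28.8 and 23.9 CPM) did not pass either. Of the 12 called factors, 7, 5, 5 and 6 kept the call without stem cell replicate 1, stem cell replicate 2, 7.5 µM replicate 1 and 7.5 µM replicate 2 in turn, with adjusted p up to 0.13 and no change of direction; POU5F1, PRDM14, ZSCAN10, OTX2 and TFAP2C kept it each time.

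The promoters of NANOG and SOX2 are shown because one gene was lost and the other did not pass while both carry the letters that POU factors such as OCT4 read. RefSeq promoter windows (GRCh38.p14, 300 bases, 250 before the gene's start and 50 after it) were searched on both strands for ATGCAAA, the core of the octamer, and for CATTGT, the core read by SOX factors; these motifs do not overlap in the windows shown. The octamer core was in 4.46% and the SOX core in 10.8% of all 35116 windows. Of the 11 pluripotency factors with a window, NANOG, SOX2 and VENTX held the octamer core. The last 160 bases before the start are printed 5′ to 3′ on the gene's strand, with the matches in capitals; NANOG is at chr12:7789242-7789401 and SOX2 at chr3:181711765-181711924, both on the plus strand.
NANOG: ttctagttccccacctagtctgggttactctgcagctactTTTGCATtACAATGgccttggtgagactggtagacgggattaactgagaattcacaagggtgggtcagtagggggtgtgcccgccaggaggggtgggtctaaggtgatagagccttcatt
SOX2: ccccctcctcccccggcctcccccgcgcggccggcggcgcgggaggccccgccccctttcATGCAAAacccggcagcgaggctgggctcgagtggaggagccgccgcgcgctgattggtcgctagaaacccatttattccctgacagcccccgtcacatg
In NANOG an octamer core at 120 to 114 bases before the start and a SOX core at 112 to 107 bases, both read on the opposite strand, are 1 base apart. In SOX2 the octamer core lies 100 to 94 bases before the start, on the gene's own strand. A match is a description of the letters and not of a factor bound there.

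Other markers of stem cells fell too, with exceptions. Of 18 genes, 17 were tested and 12 were lower (15 with the block), with none higher and a median log2 fold change of −3.85. TDGF1, the NODAL co-receptor CRIPTO, went from 206 and 257 CPM to 0.0546 and 0.164 CPM (log2 fold change −11.00 ± 1.31, adjusted p = 0.00393). L1TD1, which encodes an RNA-binding protein derived from a transposon, went from 824 and 448 CPM to 1.23 and 1.23 CPM (log2 fold change −9.01 ± 0.65, adjusted p = 0.000955). ZFP42, the zinc finger gene also known as REX1, was uneven at day 11, 0.0546 and 1.28 CPM after 122 and 145 CPM in the stem cells (log2 fold change −7.63 ± 1.51, adjusted p = 0.0201). These fell to near 0 in at least 1 day 11 library, whereas others kept a substantial level. PODXL, a sialomucin that carries the TRA-1-60 epitope, was at 139 and 122 CPM after 1422 and 1588 CPM, and DNMT3B, a de novo DNA methyltransferase, at 84.2 and 92.8 CPM after 859.5 and 861 CPM. DNMT3B was the 1 gene called of 9 tested DNA methylation enzymes; the maintenance enzyme DNMT1 was at 192 and 194 CPM and 212 and 159 CPM, with overlapping libraries. CD9 and THY1, surface proteins used to sort stem cells, went from 111 and 115 CPM to 0.519 and 0.899 CPM and from 459 and 649 CPM to 6.96 and 4.93 CPM. ALPL, the alkaline phosphatase used as a stem cell stain, did not pass: 104 and 104 CPM in the stem cells and 151 and 102 CPM at day 11 (log2 fold change 0.29 ± 0.39, adjusted p = 0.761). Without stem cell replicates 1 and 2 and 7.5 µM replicates 1 and 2 in turn, 6, 5, 2 and 4 of the 12 calls were kept (adjusted p up to 0.19), L1TD1 and PODXL each time. DNMT3B was called in none of these 4.

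In contrast to these, none of the LIN28 group passed. LIN28A and LIN28B, RNA-binding proteins that block maturation of the let-7 microRNAs, and the growth factor mRNA-binding proteins IGF2BP1 to IGF2BP3, are expressed in embryonic cells of many kinds. LIN28A was at 1200 and 1679 CPM in the stem cells and 1353 and 1154 CPM at day 11 (log2 fold change −0.20 ± 0.37, adjusted p = 0.842). IGF2BP1 was at 496 and 605 CPM and 548 and 587 CPM (log2 fold change 0.04 ± 0.69, adjusted p = 0.986). The libraries of the 2 groups overlapped for both, whereas 8 of the 11 members of this list had both day 11 libraries below both stem cell libraries and 0 the reverse. Of all 19672 tested genes, 6460 lay below in this way and 6657 above. LIN28B was at 213 and 176 CPM and 123 and 172 CPM. All 11 members of this list were tested and 0 passed, with a median log2 fold change of −0.5 (0 did by DESeq2 and 0 had an unadjusted p under 0.05). With the block TRIM71, a ubiquitin ligase that is itself a let-7 target, passed at 540.3 and 707 CPM against 149 and 266 CPM (adjusted p = 0.0381), as did IGF2BP3 (adjusted p = 0.00241). A p that misses the threshold does not show that levels were equal.

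Of the NODAL pathway, which SB431542 blocks at its receptors, the ligand-side genes were low at day 11. GDF3, a TGF-beta family ligand, went from 2.37 and 3.99 CPM to 0 counts in both day 11 libraries, at least 75-fold lower (adjusted p = 0.0253, but 0.19 by DESeq2). NODAL itself was already low in the stem cells, 0.551 and 1.49 CPM, and was at 0.0273 and 0 CPM (adjusted p = 0.0618, and 0.00245 with the block). FOXH1, the DNA-binding partner of SMAD proteins, went from 23.7 and 20 CPM to 0.246 and 0.245 CPM (log2 fold change −6.45 ± 1.18, adjusted p = 0.015). The transducer SMAD3 moved the other way, from 47.4 and 50.7 CPM to 218 and 262 CPM (log2 fold change 2.29 ± 0.48, adjusted p = 0.0244, but 0.051 with total counts as the scale). Among all 14 members, 3 were lower and 1 higher, and 7 lower and 3 higher with the block. Only 1, 1, 0 and 1 of these 4 calls were kept without stem cell replicates 1 and 2 and 7.5 µM replicates 1 and 2 (adjusted p up to 0.2). The genes of naive pluripotency, an earlier state than that of these stem cells, were mostly under 1 CPM, 6 of 10 in both stem cell libraries and 7 of 10 in both day 11 libraries. TFCP2L1 (10 and 13.9 CPM, then 1.48 and 1.36 CPM) and SUSD2 (5.96 and 5.08 CPM, then 0.41 and 0.518 CPM) were lower, and 4 of 10 members were too low to test. Neither of these 2 calls was kept in any of the 4 fits without 1 library (adjusted p up to 0.16).

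**Figure D2:**
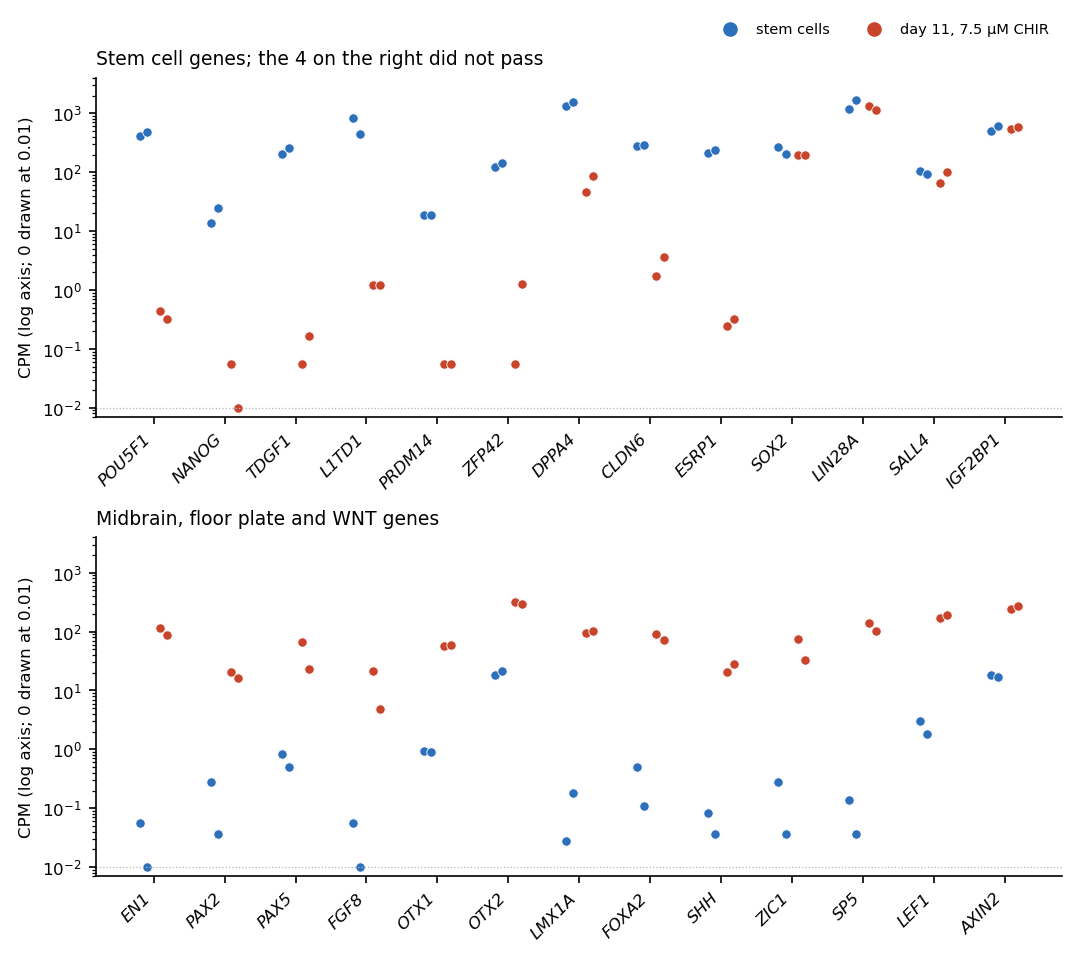
Levels in CPM (log axis, 0 drawn at 0.01) of 13 stem cell genes (top) and 13 midbrain, floor plate and WNT genes (bottom), with 1 point for each of the 2 stem cell libraries (blue) and the 2 libraries of day 11 at 7.5 µM CHIR (red). POU5F1 and NANOG fall to near 0 (POU5F1 to 0.437 and 0.327 CPM), the 4 genes on the right of the top panel did not pass, and EN1, LMX1A and SP5 rise from near 0 to 86.7 CPM or more in both day 11 libraries.

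Stem cells grow as an epithelium, and its junction genes were lost. CDH1, encoding E-cadherin, was at 408 and 442 CPM in the stem cells and at 0.164 and 0.926 CPM at day 11. It just missed the threshold without the block (log2 fold change −9.60 ± 2.53, adjusted p = 0.0524) and passed with it (adjusted p = 4.18e-07). CDH2, encoding the N-cadherin of neural epithelium, rose from 97.8 and 90.8 CPM to 707 and 838 CPM (log2 fold change 3.03 ± 0.52, adjusted p = 0.0119). For each cadherin the libraries of the groups were well apart, in opposite directions. CDH3, P-cadherin, fell from 113 and 148 CPM to 9.7 and 2.45 CPM (adjusted p = 0.00812). Among the 14 epithelial junction genes, all tested, 11 were lower (all 14 with the block) and 0 higher, with a median log2 fold change of −7.37. ESRP1, which directs epithelial splicing, went from 210.4 and 243 CPM to 0.246 and 0.327 CPM (log2 fold change −9.61 ± 1.64, adjusted p = 0.0117). The tight junction gene CLDN7 went from 48 and 57.9 CPM to 0.0273 and 0.136 CPM, CLDN6 from 282 and 289 CPM to 1.75 and 3.68 CPM, and the epithelial transcription factor GRHL2 from 30.2 and 35.5 CPM to 0.0546 and 0.191 CPM. EPCAM, an adhesion molecule of epithelia and of stem cells, fell less, from 114 and 140.3 CPM to 20.4 and 31.4 CPM (log2 fold change −2.29 ± 0.35, adjusted p = 0.008). Of the 11 junction gene calls, 5, 4, 4 and 5 were kept without stem cell replicates 1 and 2 and 7.5 µM replicates 1 and 2 (adjusted p up to 0.15), and CLDN6, CLDN10, GRHL2 and RAB25 each time. CDH2 and CDH3 together kept 1, 0, 1 and 1 of 2 calls (adjusted p up to 0.14).

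The midbrain programme was gained, its caudal part included. Of 12 genes of the midbrain-hindbrain boundary, 11 were tested, 5 were higher (6 with the block) and 1 was lower. EN1 had 2 counts in the stem cell libraries together, and the ratio of counts was 3240-fold (95% interval 895 to 26700) (adjusted p = 0.00282). PAX2, a paired-box factor that acts early at the boundary, rose from 0.276 and 0.0363 CPM to 20.5 and 16.5 CPM (log2 fold change 6.79 ± 0.84, adjusted p = 0.00435). PAX5, its relative, rose from 0.827 and 0.508 CPM to 66.4 and 23.3 CPM (log2 fold change 6.05 ± 0.86, adjusted p = 0.0066). For both genes every day 11 library lay above every stem cell library, as for 6657 of the 19672 tested genes. The FGF ligands of the boundary were uneven between the day 11 libraries: FGF8 was at 0.0551 and 0 CPM in the stem cells and at 21.1 and 4.85 CPM at day 11, and FGF17 at 0.248 and 0.218 CPM and 46.8 and 8.09 CPM. Their changes passed (FGF8 ratio of counts 414-fold (95% interval 114 to 3430), adjusted p = 0.0177; FGF17 log2 fold change 6.85 ± 1.26, adjusted p = 0.0155). CNPY1, which acts in FGF signalling at the boundary, was uneven in the same way, 1.49 and 0.58 CPM and then 14.4 and 3.24 CPM, and did not pass in this test (adjusted p = 0.11), though it was higher with the block (adjusted p = 0.000653), with only the 4 libraries compared (0.0228) and by DESeq2 (0.017).

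Other boundary genes were not called higher. EN2, the second engrailed gene, was at 2.21 and 0.145 CPM in the stem cells and 5 and 2.26 CPM at day 11 (log2 fold change 1.61 ± 1.07, adjusted p = 0.453, and 0.151 with the block). PAX8 was at 8.38 and 0.689 CPM and 6.8 and 2.75 CPM with overlapping libraries (adjusted p = 0.986). WNT1, the WNT ligand of the caudal midbrain edge, had 0 counts in the stem cells and 2 counts in the 2 day 11 libraries together, too few for a test or a fold. GBX2, which marks the hindbrain side of the boundary, was low at day 11 and lower than in the stem cells: 11.7 and 3.37 CPM, then 0.355 and 0.518 CPM (log2 fold change −4.10 ± 0.93, adjusted p = 0.0329). Of the 6 boundary calls, 2, 2, 3 and 5 were kept without stem cell replicates 1 and 2 and 7.5 µM replicates 1 and 2 (adjusted p up to 0.22); EN1 and PAX2 kept theirs each time.

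Genes of the midbrain and its floor plate were raised almost throughout: 13 of 15 members, all tested, were higher, each by at least 4-fold (14 higher with the block), and none was lower, with a median log2 fold change of 5.98. OTX1 (log2 fold change 5.98 ± 0.37, adjusted p = 0.00081) and OTX2, from 18.5 and 21.8 CPM to 316 and 297 CPM (log2 fold change 3.93 ± 0.36, adjusted p = 0.00165), mark brain rostral to the hindbrain. LMX1A, a LIM homeobox factor that specifies dopamine neuron progenitors, rose from 0.0276 and 0.181 CPM to 93.6 and 104 CPM (log2 fold change 9.92 ± 0.84, adjusted p = 0.00149). FOXA1 and FOXA2, forkhead factors of the floor plate, rose from 0.11 and 0.0363 CPM to 57.2 and 58.3 CPM and from 0.496 and 0.109 CPM to 91.6 and 72.9 CPM. For these 5 transcription factors both day 11 libraries lay above both stem cell libraries, as for 6657 of the 19672 tested genes. SHH, the ligand that the floor plate itself secretes, rose from 0.0827 and 0.0363 CPM to 20.5 and 28.1 CPM (log2 fold change 8.53 ± 1.16, adjusted p = 0.00556). FERD3L, a floor plate bHLH factor, had 0 counts in the stem cells and 3.82 and 4.79 CPM at day 11, at least 91.7-fold higher (adjusted p = 0.00378). MSX1, which acts below LMX1A, rose from 0.331 and 0.218 CPM to 48.5 and 46.1 CPM, and LMX1B from 0.414 and 0.363 CPM to 20.8 and 13.4 CPM. CORIN, a protease of the midbrain floor plate surface, was low at day 11, 1.83 and 3.16 CPM after 0.551 and 0.399 CPM, and did not pass (adjusted p = 0.134), though it was higher with the block (adjusted p = 0.00625), with only the 4 libraries compared (0.0101) and by DESeq2 (0.0363). Without stem cell replicates 1 and 2 and 7.5 µM replicates 1 and 2, 7, 7, 10 and 11 of the 13 calls were kept (adjusted p up to 0.2); OTX1, OTX2, LMX1A, FOXA1, FOXA2, SPON1 and FERD3L kept theirs each time.

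The promoter of FERD3L is shown as the 1 window, of 11 found for this list, with TAATCC, the core read by OTX factors, which 6.36% of all windows hold on either strand. The 160 bases before the start are at chr7:19145422-19145581 on the minus strand (GRCh38.p14, RefSeq), and the capitals mark the match, 92 to 87 bases before the start.
FERD3L: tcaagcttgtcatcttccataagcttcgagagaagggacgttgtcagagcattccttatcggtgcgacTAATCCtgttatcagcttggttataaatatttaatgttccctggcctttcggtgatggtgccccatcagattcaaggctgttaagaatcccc
Whether the rise of OTX2 bears on that of FERD3L was not tested.

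Dorsal and lateral genes of the midbrain were raised as well. Of 16 genes of dorsal midbrain and roof plate, 14 were tested, 7 were higher (11 with the block) and 0 lower (1 with the block). ZIC1 and ZIC4, zinc finger factors of the dorsal neural tube that sit side by side in opposite directions, rose from 0.276 and 0.0363 CPM to 74.4 and 32.5 CPM and from 0.11 and 0.0725 CPM to 12.9 and 8.42 CPM (log2 fold changes 8.32 ± 1.14 and 6.78 ± 0.76, adjusted p = 0.0056 and 0.00317). PAX3, a paired-box factor of the dorsal neural tube, rose from 0.0276 and 0 CPM, a single count, to 17.1 and 35.2 CPM, a ratio of counts of 1670-fold (95% interval 300 to 66000) (adjusted p = 0.0137). TAL2, a bHLH factor of the midbrain, rose from 0.0276 and 0.0725 CPM to 8.71 and 10.5 CPM, a ratio of 205-fold (95% interval 69.8 to 996), and MEIS2 from 1.38 and 0.617 CPM to 35.6 and 45.8 CPM (adjusted p = 0.00414 and 0.00361). ZIC2 (129 and 130.4 CPM, then 91.6 and 88.1 CPM) and ZIC5 (94.9 and 102 CPM, then 29.8 and 45.2 CPM) did not pass, though ZIC5 was lower with the block. BARHL1 and BARHL2, of diencephalon and dorsal neural tube, had at most 2 counts in either group. Without stem cell replicates 1 and 2 and 7.5 µM replicates 1 and 2, 3, 2, 4 and 4 of the 7 calls were kept (adjusted p up to 0.19), ZIC4 and MEIS2 each time.

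In the list of the midbrain ventricular zone 5 of 12 tested genes were higher (8 with the block) and none lower. NKX6-1, a ventral progenitor factor that lies next to the floor plate, rose from 0.11 and 0.0363 CPM to 15.6 and 16.1 CPM (log2 fold change 7.62 ± 0.67, adjusted p = 0.00162). The iroquois genes IRX1, IRX3 and IRX5, which subdivide the neural plate, rose from 1.16 and 0.0725 CPM, 1.43 and 0.834 CPM and 0.414 and 0.254 CPM to 31.4 and 23.6 CPM, 38.2 and 26.7 CPM and 10.1 and 6.81 CPM. DMBX1, a midbrain homeobox gene, rose from 0.0827 and 0 CPM to 4.59 and 18.6 CPM, uneven between the day 11 libraries (ratio of counts 247-fold (95% interval 84.1 to 1200), adjusted p = 0.0332, but 0.0548 with no filter on low counts). NKX2-2, a factor of the zone beside the floor plate, had 0 counts in the stem cells and 0.0546 and 0.0545 CPM at day 11, and HELT, a midbrain bHLH factor, 1 count in all. Of the 5 calls, 3, 2, 3 and 3 were kept without stem cell replicates 1 and 2 and 7.5 µM replicates 1 and 2 (adjusted p up to 0.23), NKX6-1 each time.

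HOX genes of the hindbrain and trunk were low in both groups, and forebrain genes moved both ways. The hindbrain list had 4 tested members of 13, of which 0 passed (0 did by DESeq2, 1 had an unadjusted p under 0.05, and 2 were higher with the block, HOXB3 among them). Over all 39 HOX genes counted, which pattern hindbrain and spinal cord, the summed level was 0.11 and 0.0725 CPM in the stem cells and 3.63 and 2.18 CPM at day 11, and 38 of 39 were below 1 CPM in both day 11 libraries. HOXB3 was the one at 1 CPM or more in a library, 1.01 and 0.327 CPM after 0 counts, at least 14.2-fold higher (adjusted p = 0.0731, and 0.00308 with the block). HOXC4 was the one that passed without the block, at 0.382 and 0.381 CPM (ratio of counts 24.4-fold (95% interval 4.03 to 997), adjusted p = 0.0284), a call lost without each of the 4 libraries in turn (adjusted p up to 0.21). HOXB9, the other HOX gene tested, went from 0 counts to 0.792 and 0.381 CPM, at least 12.5-fold higher (adjusted p = 0.0505, and 0.00379 with the block), so that all 3 tested HOX genes were higher with the block. Of 19 forebrain genes, 12 were tested, 3 were lower and 2 higher (4 and 2 with the block). Of all tested genes 5.7% were lower and 4.35% higher (18.1% and 16.6% with the block). SIX6 and EMX1, of eye field and cortex, had 1.49 and 3.3 CPM and 2.23 and 4.21 CPM in the stem cells and 0 counts at day 11, at least 55.5-fold and at least 75.4-fold lower (adjusted p = 0.0271 and 0.0308, the second 0.189 by DESeq2). SIX3, of the anterior forebrain, was the other gene called lower (1.1 and 0.29 CPM, then 0.0273 and 0.0545 CPM). PAX6, of forebrain and lateral neural tube, was at 0.11 and 0.0363 CPM and 0.191 and 0.599 CPM and did not pass. The 2 higher were EMX2 and DLX5, at 1.39 and 1.8 CPM and 0.901 and 3.84 CPM. Of the 5 forebrain calls, 0, 0, 1 and 0 were kept without stem cell replicates 1 and 2 and 7.5 µM replicates 1 and 2 (adjusted p up to 0.26).

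**Figure D3:**
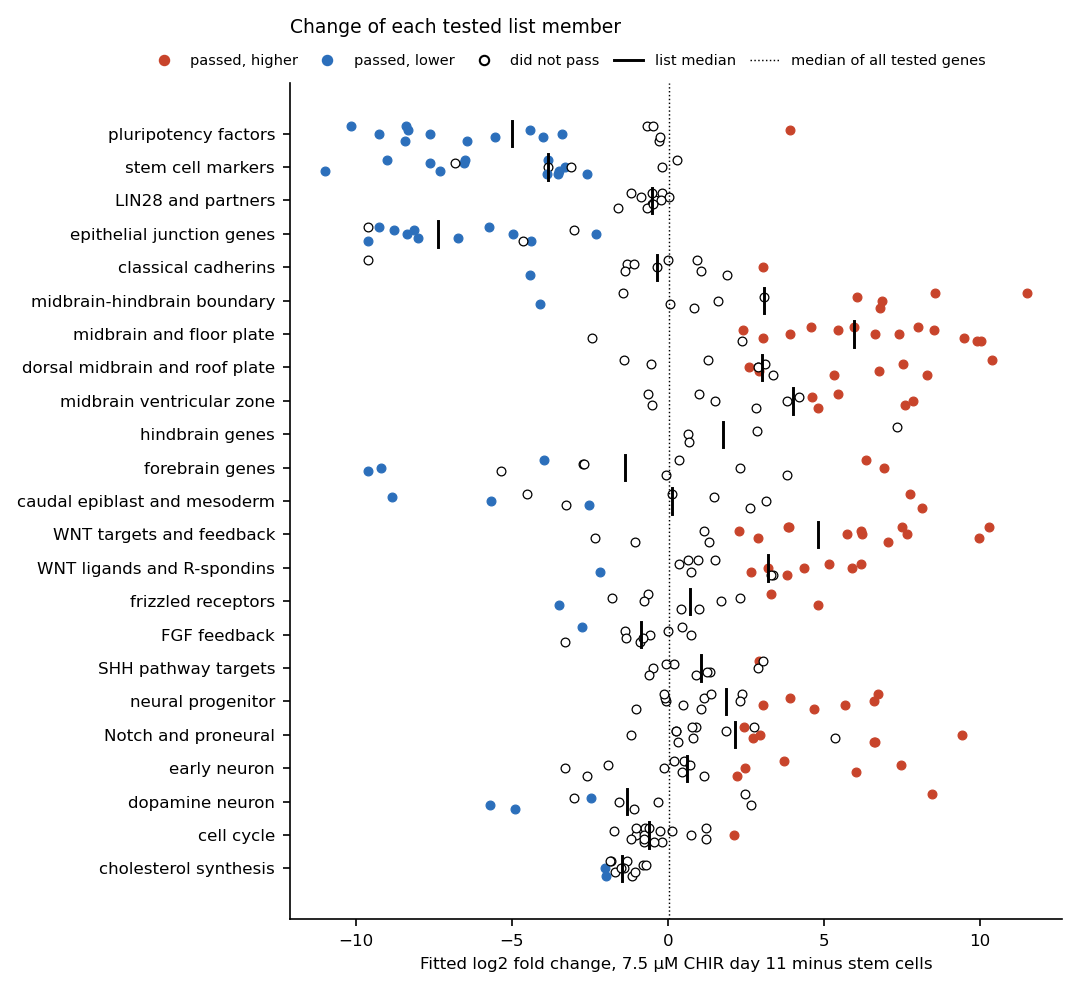
Fitted log2 fold change (7.5 µM CHIR day 11 minus stem cells) of each tested member of 23 gene lists, red where it was called higher, blue where called lower and open where it did not pass; the bar is the list's median and the dotted line the median of all tested genes, 0.05. Pluripotency and epithelial junction genes lie to the left, boundary, floor plate and WNT target genes to the right, and the LIN28 group lies between −1.59 and 0.04. Fitted values of genes with 3 counts or fewer in a group depend on the fit's prior count.

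Genes that WNT signalling switches on were raised. Of 16 targets and feedback genes, all tested, 12 were higher, each by at least 4-fold (14 were higher with the block, at any fold), and 0 lower (1 with the block), with a median log2 fold change of 4.8. AXIN2, part of the complex that degrades beta-catenin and a general target, rose from 18.3 and 17.1 CPM to 241 and 277 CPM (log2 fold change 3.87 ± 0.57, adjusted p = 0.00732). LEF1, which carries beta-catenin on DNA, rose from 3.03 and 1.81 CPM to 167 and 192 CPM (log2 fold change 6.21 ± 0.53, adjusted p = 0.00149). SP5, a zinc finger repressor and direct target, rose from 0.138 and 0.0363 CPM to 137 and 104 CPM (log2 fold change 10.30 ± 1.02, adjusted p = 0.00226). For all 3 both day 11 libraries lay above both stem cell libraries, as for 6657 of the 19672 tested genes. Several inhibitors of the pathway rose with them. NKD1, which acts on Dishevelled, went from 6.21 and 7.25 CPM to 412 and 573 CPM. NOTUM, which inactivates WNT ligands, went from 0.166 and 0.0363 CPM to 25.8 and 18.8 CPM. APCDD1, a membrane inhibitor, went from 4.74 and 7.29 CPM to 377 and 263 CPM. NKD2, the relative of NKD1, went the other way (log2 fold change −2.32, adjusted p = 0.109). It was lower with the block (adjusted p = 0.0125) and by DESeq2 (0.0205). The secreted antagonists SFRP1 and SFRP2, given further below, also fell. DKK1, which blocks the LRP co-receptors, rose from 0.303 and 0.145 CPM to 149 and 319 CPM, uneven between the day 11 libraries (log2 fold change 9.97 ± 1.5, adjusted p = 0.00785). RNF43, a ubiquitin ligase that removes frizzled receptors, did not pass (14 and 16.3 CPM, then 4.32 and 10.2 CPM), while its partner ZNRF3 was higher (19.7 and 23.9 CPM, then 99.8 and 113 CPM). Without stem cell replicates 1 and 2 and 7.5 µM replicates 1 and 2, 7, 6, 10 and 10 of the 12 calls were kept (adjusted p up to 0.28), LEF1, NKD1, SP5, NOTUM, APCDD1 and WIF1 each time.

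SP5 is shown as the 1 target, of 10 with a window, whose promoter holds CTTTGAT, the core read by TCF and LEF factors, which 2.62% of all windows hold on either strand. The 160 bases before the start are at chr2:170715177-170715336 on the plus strand (GRCh38.p14, RefSeq), with the match in capitals 109 to 103 bases before the start.
SP5: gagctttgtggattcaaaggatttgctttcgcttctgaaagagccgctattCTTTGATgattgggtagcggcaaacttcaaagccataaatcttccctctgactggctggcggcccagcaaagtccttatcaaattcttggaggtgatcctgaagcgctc

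Ligands and receptors of the pathway moved in part. Of 17 WNT ligand and R-spondin genes, 15 were tested, 7 were higher (10 with the block) and 1 was lower. WNT4 rose from 0.579 and 0.399 CPM to 43 and 28.9 CPM (log2 fold change 6.18 ± 0.75, adjusted p = 0.00416) and WNT5A, a ligand of the midbrain floor plate, from 5.54 and 6.71 CPM to 40.3 and 36.9 CPM (adjusted p = 0.0104). RSPO1 and RSPO3, which amplify WNT signals at the receptor, rose from 0.0551 and 0.254 CPM and 0.0827 and 0.0363 CPM to 8.74 and 9.45 CPM and 1.09 and 3.57 CPM. RSPO4 was the member called lower (8.33 and 5.69 CPM, then 1.37 and 1.72 CPM). Of 10 frizzled receptors, FZD10 (1.76 and 1.74 CPM, then 60.4 and 39.3 CPM) and FZD1 (3.92 and 3.66 CPM, then 37.5 and 38.3 CPM) were higher and FZD5 (48.6 and 64 CPM, then 4.83 and 5.09 CPM) lower, the last a call lost with total counts as the scale (adjusted p = 0.0654). FZD7, a frizzled of stem cells, did not pass at 272 and 213 CPM and 112 and 172 CPM (adjusted p = 0.614, and 0.0499 with the block). With the block 5 frizzled genes were higher and 3 lower. Of all tested genes 4.35% were higher and 5.7% lower (16.6% and 18.1% with the block). Of the 8 ligand and R-spondin calls, 2, 1, 4 and 4 were kept without stem cell replicates 1 and 2 and 7.5 µM replicates 1 and 2 (adjusted p up to 0.26), RSPO1 each time, and of the 3 frizzled calls 1, 0, 2 and 2 (adjusted p up to 0.25).

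FGF target genes were not called higher than in the stem cells: 0 of 10 were, where 4.35% of all tested genes were. Of the 10, 1 was lower, where 5.7% of all tested genes were. With the block 0 were higher and 4 lower, where 16.6% and 18.1% of all tested genes were. ETV4, an ETS factor induced by FGF, fell from 115 and 129 CPM to 22.6 and 14 CPM (log2 fold change −2.74 ± 0.62, adjusted p = 0.0331). SPRY4 and DUSP6, inhibitors induced by the pathway, did not pass, at 197 and 247 CPM and then 18.4 and 26.8 CPM and at 238 and 364 CPM and then 120 and 115 CPM (adjusted p = 0.287 and 0.13). Both were lower with the block (adjusted p = 0.0046 and 0.0107) and with only the 4 libraries compared (0.000436 and 0.0101), and DUSP6 also by DESeq2 (0.0435). SPRED2 was at 45.6 and 49 CPM and 47.6 and 46.3 CPM (adjusted p = 0.997). The ETV4 call was lost without each of the 4 libraries in turn (adjusted p up to 0.21).

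Few Sonic hedgehog targets passed: 1 of 10 was higher, where 4.35% of all tested genes were (16.6% with the block). PTCH1, the receptor that the pathway induces, rose from 25.9 and 23.4 CPM to 177 and 197 CPM (log2 fold change 2.92 ± 0.61, adjusted p = 0.0239), the 1 call among 10 tested genes (5 higher with the block, none lower). GLI1, the transcriptional target and effector, was uneven, 34 and 9.4 CPM at day 11 against 12.8 and 10.5 CPM, and did not pass. GLI3, mainly a repressor, was at 41.6 and 46.9 CPM and 118 and 109.7 CPM and did not pass (adjusted p = 0.0954), though it was higher with the block (adjusted p = 0.00242), with only the 4 libraries compared (0.00458) and by DESeq2 (0.0226). The PTCH1 call was lost without each of the 4 libraries in turn (adjusted p up to 0.21).

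A few genes of the caudal epiblast, the source of trunk tissue, were gained. T, encoding Brachyury, rose from 0.0551 and 0.0725 CPM to 10.5 and 18.9 CPM (log2 fold change 7.78 ± 1.28, adjusted p = 0.0103). CDX2, a caudal homeobox factor, rose from 0.0276 and 0.0363 CPM, 2 counts in all, to 10.9 and 9.23 CPM, a ratio of counts of 321-fold (95% interval 88.5 to 2650) (adjusted p = 0.00794). HOX genes, which they accompany in the trunk, stayed at the low levels given above. Other members moved the opposite way: CDX4 (1.9 and 1.85 CPM) had 0 counts at day 11, at least 45.9-fold lower, and TBX6, a factor of presomitic mesoderm, fell from 2.18 and 1.6 CPM to 0.273 and 0.381 CPM. Of 11 tested members of 13, 2 were higher and 3 lower (4 and 5 with the block). MSGN1, a mesoderm factor, had at most 0.109 CPM in any library, and MIXL1 did not pass. Of these 5 calls, 0, 0, 2 and 1 were kept without stem cell replicates 1 and 2 and 7.5 µM replicates 1 and 2 (adjusted p up to 0.25).

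Genes of neural progenitors were higher in part. Of 16 progenitor genes, all tested, 6 were higher (10 with the block) and 0 lower (1 with the block, SOX9, at 27.7 and 15.7 CPM and then 7.35 and 13.9 CPM). VIM, the intermediate filament of neural epithelium, rose from 137 and 54.5 CPM to 5030 and 4703 CPM (log2 fold change 5.67 ± 0.65, adjusted p = 0.00353). DACH1 rose from 1.66 and 1.16 CPM to 123 and 182 CPM and PLAGL1 from 2.79 and 2.65 CPM to 73 and 67.9 CPM. NES, the filament Nestin, was at 478 and 298 CPM and 1155 and 885 CPM and did not pass (adjusted p = 0.278), though it was higher with the block (adjusted p = 0.00559) and with only the 4 libraries compared (0.0138). Of 16 tested Notch and proneural genes, 6 were higher (11 with the block) and 0 lower (1 with the block, the ligand DLL3, at 7.31 and 11.9 CPM and then 4.23 and 4.22 CPM). HES1 and HES5, repressors that Notch induces, rose from 15.4 and 12.2 CPM to 138 and 77.6 CPM and from 0.0551 and 0 CPM to 4.48 and 2.21 CPM. The proneural genes NEUROG1 and NEUROG2 rose from 0 counts and 0.0551 and 0 CPM to 3.66 and 2.04 CPM and 5.57 and 1.36 CPM, NEUROG1 at least 60.7-fold (adjusted p = 0.00893 and 0.021). ATOH1 had 1 count at day 11. Of the 6 progenitor calls, 3, 3, 4 and 4 were kept without stem cell replicates 1 and 2 and 7.5 µM replicates 1 and 2 (adjusted p up to 0.22), and of the 6 Notch and proneural calls 1, 1, 1 and 3 (adjusted p up to 0.24), with HES5 kept each time.

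Of 14 early neuron genes, 5 were higher and none lower (6 higher and 3 lower with the block). SYT4, a synaptotagmin, rose from 2.26 and 2.65 CPM to 467 and 406 CPM (log2 fold change 7.47 ± 0.62, adjusted p = 0.00149). MAP2, a microtubule protein of neurons that is also made before them, rose from 36.5 and 15.6 CPM to 275 and 416 CPM, and ELAVL4, an RNA-binding protein of new neurons, from 0.0551 and 0.0363 CPM to 3.5 and 3.05 CPM. DCX, STMN2 and GAP43, markers of migrating and growing neurons, did not pass, though STMN2 did with the block: DCX was at 23.8 and 29.3 CPM and 22 and 53.8 CPM. Of the dopamine neuron genes, DDC, which makes dopamine from L-DOPA, rose from 0.0827 and 0.145 CPM to 39.2 and 41.8 CPM (log2 fold change 8.46 ± 0.95, adjusted p = 0.00328). TH, the enzyme that defines dopamine neurons, was too low to test in either group, 0.248 and 0.0363 CPM and 0.0819 and 0.136 CPM. NR4A2, the factor NURR1, was at 1.41 and 1.89 CPM and 1.58 and 1.03 CPM and did not pass, and PITX3 had at most 4 counts. RET and GFRA1, the receptor of GDNF and its co-receptor, fell from 8.82 and 10.1 CPM to 0.273 and 0.354 CPM and from 21 and 25.5 CPM to 3.82 and 4.66 CPM. In all, 1 of 10 tested dopamine neuron genes was higher and 3 were lower (3 and 5 with the block). Without stem cell replicates 1 and 2 and 7.5 µM replicates 1 and 2, 2, 2, 2 and 4 of the 5 neuron calls and 2, 2, 2 and 3 of the 4 dopamine neuron calls were kept (adjusted p up to 0.16), with ELAVL4, SYT4, DDC and RET kept each time.

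Few cell cycle and metabolic genes passed without the block. Of 17 cell cycle genes 1 passed: CDKN1C, an inhibitor of cyclin-dependent kinases, rose from 7.91 and 7.04 CPM to 24 and 41.4 CPM (log2 fold change 2.13 ± 0.40, adjusted p = 0.016), a call kept without 7.5 µM replicate 1 and lost without each of the other 3 libraries (adjusted p up to 0.17). With the block, 9 were lower and 4 higher. MKI67, which marks cycling cells, was at 496 and 500.4 CPM and 254 and 341 CPM (adjusted p = 0.251, and 0.0136 with the block). All 12 cholesterol synthesis genes had negative fold changes and were lower with the block, but 2 passed without it, among them INSIG1, a sterol sensor, from 122 and 114 CPM to 38 and 21.8 CPM (adjusted p = 0.0398, but 0.0671 with total counts as the scale). These 2 calls were lost without each of the 4 libraries in turn (adjusted p up to 0.24), and stem cell medium and day 11 medium differ, so medium and state cannot be told apart. Of 14 genes of hypoxia and glycolysis 0 passed (2 did by DESeq2, 2 had an unadjusted p under 0.05, and 4 were higher and 3 lower with the block); several were uneven at day 11, such as HK2 at 59.3 and 233 CPM.

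Genes of the largest changes, taken by rule over all genes, mix these programmes with less familiar ones. The rule took the 12 higher and 12 lower genes of largest fitted change that passed, had at least 5 CPM on average in the higher group, did not overlap between the groups and had a gene symbol other than a clone name. The 12 higher were SMCO3, EN1, GSX1, ITGA8, PLSCR5, PAX3, SP5, DKK1, LMX1A, ZNF503, LINC00261 and BMP5. SMCO3, a coiled-coil membrane protein gene, had 0 counts in the stem cells and 15.6 and 17.4 CPM at day 11, at least 351-fold higher (adjusted p = 0.00181). GSX1, a homeobox factor of the lateral neural tube, also had 0 counts before and 6.77 and 9.07 CPM at day 11, at least 169-fold higher. ZNF503, a zinc finger repressor, rose from 0.0551 and 0.181 CPM to 121 and 90.2 CPM (log2 fold change 9.82 ± 0.73, adjusted p = 0.00128), and LINC00261, a long non-coding RNA next to FOXA2, from 0.221 and 0.0725 CPM to 95.7 and 151 CPM (log2 fold change 9.63 ± 0.66). Of these 12 calls, 7, 7, 9 and 8 were kept without stem cell replicates 1 and 2 and 7.5 µM replicates 1 and 2 (adjusted p up to 0.14), SMCO3, EN1, GSX1, SP5, LMX1A, ZNF503 and LINC00261 each time.

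The 12 lower included LINC00678, TMEM30B, POU5F1P3, GABRP, HMX2, TDGF1, TDGF1P3, FCRL5, DPEP3, IDO1 and BSPRY. LINC00678, a long non-coding RNA, went from 96.8 and 147 CPM to 0.0273 and 0 CPM, a single count, so that the ratio of counts was 8700-fold (95% interval 1560 to 344000) (adjusted p = 0.00279). TMEM30B, a subunit of lipid flippases, went from 21.4 and 26.9 CPM to 0 counts, at least 582-fold lower (adjusted p = 0.00931). IDO1, which degrades tryptophan, went from 26.8 and 24.2 CPM to 0 and 0.0272 CPM, and HMX2, a homeobox factor, from 8 and 11.8 CPM to 0 counts, at least 236-fold lower. POU5F1P3 and TDGF1P3 are near-copies of POU5F1 and TDGF1, so how reads were split between copy and parent is uncertain; they went from 64.6 and 94.4 CPM and 29.1 and 32.6 CPM to 0.0273 and 0 CPM and 0 and 0.0272 CPM. GABRP, at 6.73 and 16.2 CPM and then 0 counts, was not called by DESeq2 (adjusted p = 0.0914). Of these 12 calls, 7, 6, 7 and 8 were kept without stem cell replicates 1 and 2 and 7.5 µM replicates 1 and 2 (adjusted p up to 0.11), LINC00678, POU5F1P3, HMX2, IDO1 and BSPRY each time.

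By difference in CPM under the same conditions, the 6 that rose most were VIM, ODC1, NREP, SLC44A2, SAT1 and MMP2, and the 6 that fell most PODXL, DPPA4, TMSB4X, SCD, DNMT3B and SFRP1. ODC1, which starts polyamine synthesis, rose from 106 and 91.1 CPM to 3008 and 3526 CPM (log2 fold change 5.05 ± 0.50, adjusted p = 0.00209), and SAT1, which starts polyamine breakdown, from 91 and 98.4 CPM to 613 and 1012 CPM (log2 fold change 3.10 ± 0.73, adjusted p = 0.0361). Enzymes of both directions were thus higher. MMP2, a matrix protease, rose from 52.8 and 72.1 CPM to 897 and 639 CPM. SFRP1, a secreted WNT antagonist, fell from 657 and 828 CPM to 54.4 and 80.5 CPM (log2 fold change −3.46 ± 0.51, adjusted p = 0.00753), as did its relative SFRP2, from 408 and 355 CPM to 38.6 and 28.8 CPM. SCD, a fatty acid desaturase, fell from 1299 and 1514 CPM to 519 and 398 CPM, a call lost with total counts as the scale (adjusted p = 0.0623) and with no filter on low counts (0.0693). Of these 12 calls, 5, 3, 6 and 6 were kept without stem cell replicates 1 and 2 and 7.5 µM replicates 1 and 2 (adjusted p up to 0.24), VIM, ODC1 and PODXL each time.

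Markers of cell types outside the midbrain lineage were counted as well, and some of them passed in each direction. The summed level of 9 neural crest genes was 267 and 311 CPM in the stem cells and 35.3 and 55.6 CPM at day 11, with 1 higher and 3 lower of 8 tested (3 higher and 5 lower with the block). TWIST1, a bHLH factor of crest and mesenchyme, was the 1 called higher, from 0.11 and 0.109 CPM to 2.05 and 1.44 CPM (log2 fold change 3.94 ± 0.95, adjusted p = 0.0395). TFAP2B and SNAI2, further crest factors, were at 0.138 and 0 CPM and 1.49 and 0.58 CPM and then at 0.246 and 3.13 CPM and 2.51 and 3.76 CPM, and were higher with the block (adjusted p = 0.00488 and 0.0478), TFAP2B also by DESeq2 (0.0266). ERBB3, a receptor of crest and Schwann cells, was lower, from 92.5 and 123 CPM to 4.15 and 2.67 CPM. SOX10, which defines the crest, was at 1.27 and 1.16 CPM and 0.0546 and 0.0272 CPM and lower with the block. The 11 mesenchymal and vascular genes found summed to 512 and 487 CPM and then to 196 and 380 CPM, of which COL1A2 made 32.1 and 223 CPM at day 11, uneven between the libraries; PECAM1 was not analysed here and CDH5 was at 0.0273 and 0.109 CPM. ACTA2, of smooth muscle, was the 1 called of 10 tested, higher (5.35 and 2.14 CPM, then 16.1 and 16.7 CPM), and 4 were higher and 3 lower with the block, the endothelial receptor KDR among the lower (244 and 321 CPM, then 0.41 and 4.47 CPM). The 10 endoderm genes summed to 16.6 and 18.5 CPM and then to 5.93 and 4.44 CPM, with FOXA3 lower and SOX17 at 0 counts in all 4 libraries. The 5 tested had fitted log2 fold changes from −3.16 to 6.97, the highest being that of TTR. The TTR value is against 1 count in the stem cells, so its size depends on the fit. TTR did not pass without the block (adjusted p = 0.123). It was higher with the block (adjusted p = 0.000291), with only the 4 libraries compared (0.00204) and by DESeq2 (0.00295). With the block 2 were higher and 2 lower. GATA6, one of the higher, was at 0.437 and 0.3 CPM after 0.0551 and 0.0725 CPM. The 9 surface ectoderm genes summed to 30.9 and 33.3 CPM and then to 32.2 and 27.8 CPM, mostly KRT19 (26.3 and 28.9 CPM, then 28.6 and 26 CPM), with KRT5 and KRT14 at 1 count or none; 0 of 4 tested passed (0 did by DESeq2 and 0 had an unadjusted p under 0.05). The 8 glia genes summed to 58.5 and 58.8 CPM and then to 25.9 and 42.1 CPM, with PDGFRA higher, OLIG1 and MBP lower of 7 tested (1 higher and 5 lower with the block) and GFAP at 0.164 and 0.109 CPM at day 11. Of the calls named for these lists, 1 of 4 crest calls and 1 of 3 glia calls were kept at most without any 1 library, and neither the ACTA2 nor the FOXA3 call was kept without any of the 4 (adjusted p up to 0.27). FOXA1 and FOXA2 are also endoderm factors. Of the endoderm list, SOX17 was at 0 and HNF4A had 2 counts at day 11, while TTR and GATA6 were higher with the block. The part of such cells in the results was not tested.

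Part of these genes differed at day 11 by the CHIR concentration given before the medium change on day 10. From day 10 the medium held 3 µM CHIR, so the concentrations below name the earlier treatment. The values below are from the test of 7.5 against 0.7 µM with the replicate block, as replicate numbers deviated together at day 11, and they rest on the block: without it 0 genes passed in edgeR's test, 29 with no filter on low counts and 657 by DESeq2. EN1 was at 3.43 and 8.22 CPM at 0.7 µM and higher at 7.5 µM by 3.95 ± 0.58 (log2, SE; adjusted p = 0.00351), and PAX5 by 4.36 ± 0.64 from 0.796 and 2.88 CPM (adjusted p = 0.0035). PAX2 (2.69 and 6.06 CPM), FGF17 (0.746 and 0.379 CPM) and CNPY1 (0.448 and 0.111 CPM) were higher at 7.5 µM as well, and EN2, with 1 count at 0.7 µM, too (adjusted p = 0.00103). In all 6 of 11 tested boundary genes were higher and 0 lower. The EN2 level at 7.5 µM thus stood above that at 0.7 µM but not above that of the stem cells by the tests used. OTX1 and OTX2 were higher by 0.96 ± 0.23 and 1.45 ± 0.26 (adjusted p = 0.0262 and 0.00911). LMX1A (82.5 and 42.2 CPM at 0.7 µM), FOXA1 (103 and 54.7 CPM) and FOXA2 (216 and 72.3 CPM) did not pass.

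Some floor plate genes were lower at 7.5 than at 0.7 µM. SHH was at 284 and 52.5 CPM at 0.7 µM, and lower at 7.5 µM (log2 difference −2.36 ± 0.57, adjusted p = 0.0281). CORIN was at 53 and 14.7 CPM and lower at 7.5 µM (log2 difference −3.35 ± 0.58, adjusted p = 0.00738). NTN1 and SPON1, secreted guidance proteins of the floor plate, were lower too (log2 differences −1.63 ± 0.42 and −1.28 ± 0.26). This makes 5 lower and 3 higher of 15 midbrain and floor plate genes. Of 10 tested forebrain genes 5 were lower and 2 higher: NKX2-1 was at 13.7 and 8.67 CPM at 0.7 µM and 0 and 0.109 CPM at 7.5 µM, PAX6 at 11.5 and 8.4 CPM and 0.191 and 0.599 CPM, and FEZF2 at 3.23 and 1.52 CPM and 0 counts (adjusted p = 0.000663, 0.00409 and 0.00916). Dorsal genes were higher in 10 of 14 cases, among them ZIC1 (0.298 and 0.0669 CPM at 0.7 µM, log2 difference 8.31 ± 0.56) and PAX7 (0.149 and 0.736 CPM, then 8.22 and 4.52 CPM).

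**Figure D4:**
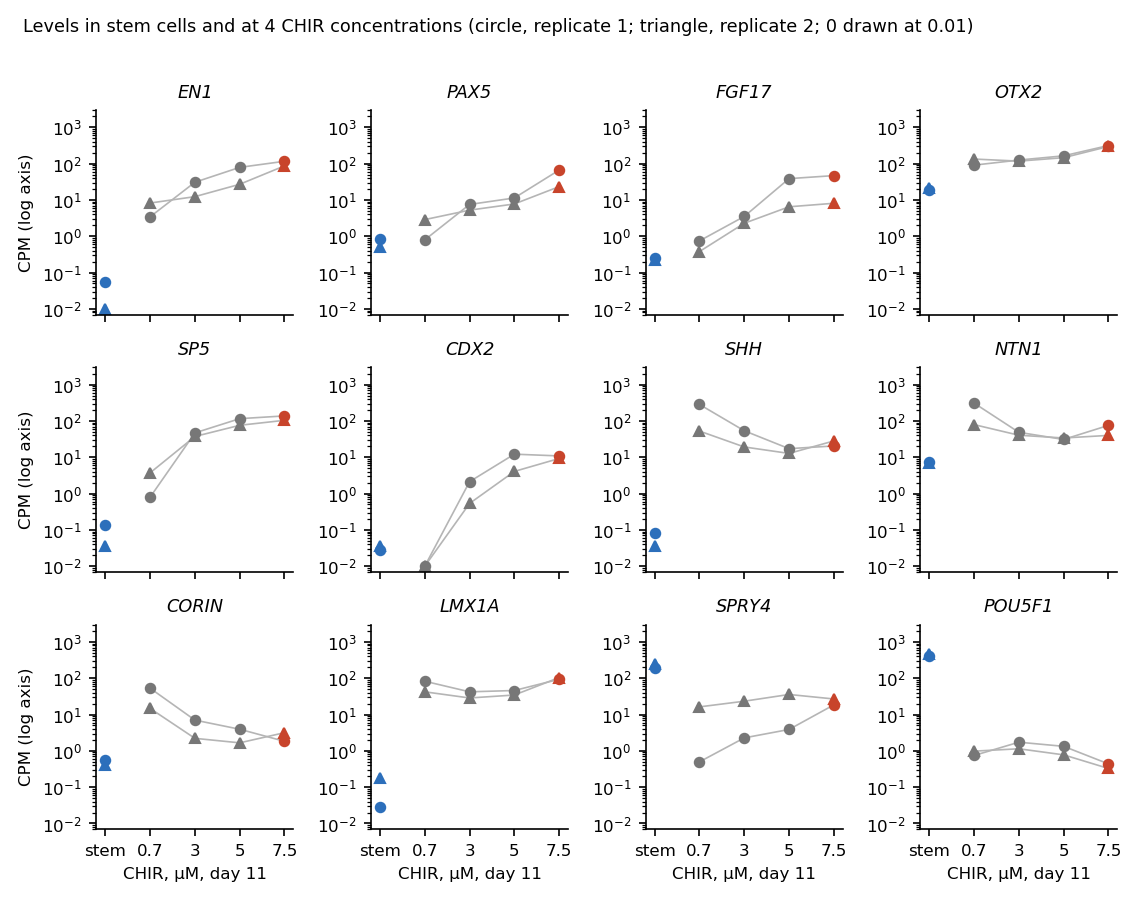
CPM (log axis, 0 drawn at 0.01) of 12 genes in the stem cells (blue), at day 11 with 0.7, 3 and 5 µM CHIR (grey) and with 7.5 µM (red), with circles for replicate 1 and triangles for replicate 2. Concentrations are those given before the medium change on day 10. EN1, PAX5, FGF17, SP5 and CDX2 are higher at 7.5 than at 0.7 µM, SHH, NTN1 and CORIN are lower, and LMX1A and POU5F1 did not pass between these concentrations.

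WNT targets were higher at 7.5 than at 0.7 µM in 12 of 16 cases and lower in 0. SP5 was at 0.796 and 3.72 CPM at 0.7 µM and higher at 7.5 µM by 5.65 ± 0.59 (adjusted p = 0.000789), APCDD1 at 12 and 6.35 CPM and higher by 5.15 ± 0.37, AXIN2 at 25.3 and 70.9 CPM and higher by 2.58 ± 0.33 (adjusted p = 0.000264 and 0.00177). CDX2 and T, with 0 and 1 counts in the 0.7 µM libraries together, were higher at 7.5 µM (adjusted p = 0.000618 and 0.000637). FGF targets were higher at 7.5 than at 0.7 µM in 9 of 10 cases: SPRY4 was at 0.497 and 16.2 CPM at 0.7 µM (log2 difference 2.83 ± 0.79, adjusted p = 0.0466) and ETV4 at 1.44 and 4.88 CPM (log2 difference 2.69 ± 0.51, adjusted p = 0.0106). Cell cycle genes were higher in 11 of 17 cases, MKI67 by 1.71 ± 0.24 from 74 and 109.5 CPM. Of the genes of stem cells, 2 of 12 tested pluripotency factors were lower at 7.5 µM and 1, OTX2, was higher, 4 of 11 tested epithelial junction genes were lower and 0 higher, and POU5F1 was at 0.746 and 0.981 CPM at 0.7 µM (adjusted p = 0.145). CLDN6, a claudin of tight junctions, was at 4.63 and 9.83 CPM at 0.7 µM and lower at 7.5 µM (log2 difference −1.41 ± 0.33, adjusted p = 0.0235). PODXL (227 and 436 CPM at 0.7 µM), TFCP2L1 (3.78 and 9.12 CPM) and SFRP1 (168 and 316 CPM) were lower at 7.5 µM too (adjusted p = 0.0238, 0.0148 and 0.00237). CDH1 was uneven at 0.7 µM with 0.746 and 32.4 CPM and lower at 7.5 µM (adjusted p = 0.00511, the libraries overlapping), and CDH2 was higher by 1.14 ± 0.28. Of the 31 genes named here as higher or lower at 7.5 µM, 20, 24, 27 and 30 kept the call without 0.7 µM replicates 1 and 2 and 7.5 µM replicates 1 and 2 (adjusted p up to 0.33), with no change of direction.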

How the data were processed

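RNA-seq libraries of H9 cells were analysed from whole-number read counts per gene, which the authors deposited as 1 table per library. Per the submitters' processing notes, the build was hg19 and the tools included HTSeq 0.5.3, featureCounts 1.4.2, DESeq2 1.12.4 and the aligner STAR 2.4.2a; how reads were counted, and on which strand, is not given in the sources used here. Summary entries that name no gene (37.41 to 44.33% of each library) were left out. Gene names are those of the tables.

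The 10 stem cell and day 11 libraries were fitted together with edgeR 4.0.16 (quasi-likelihood, robust, TMM scaling, filterByExpr, group only) in R 4.3.3, and Benjamini-Hochberg adjusted p under 0.05 counted as passed. Errors after ± are standard errors of the log2 fold change. For a group with 1 to 3 counts the text prints a count ratio and its exact 95% interval, and where it held 0, a lower bound against 3 counts over the group; both cover counting error only. The script was tested on simulated counts, drawn without the deviation that day 11 replicates share. That test could therefore not show whether p-values with the block are too small. DESeq2 1.42.0, other scalings, no filter, replicate blocks and leaving out each library in turn were tried as alternatives. Day 11 replicate numbers were taken as paired because their deviations correlated. Day 16 and day 30 libraries were not used. Some list members are counted but not reported by name here. Promoters are RefSeq windows matched by symbol.

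The members and lists were chosen with earlier results of these data known. Genes named by rule were the 12 higher and 12 lower of largest fold change and the 6 of largest CPM difference each way, up to 4 passing members per list and a fixed set of markers; other list members were named after their values were seen.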

Additional observations from a re-analysis of the deposited data

How the results depend on the processing

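Without the replicate block, 1978 genes differed between 7.5 µM day 11 cells and stem cells, 1704 of them by at least 4-fold. The counts rose to 5500 and 3004 with only the 4 libraries compared, to 3987 and 2765 with the replicate block over all 10 libraries, to 6838 and 3193 with the block within day 11, and to 3537 by DESeq2. They fell to between 249 and 404 when 1 of the 4 libraries was left out. Crossing the replicate numbers between stem cells and day 11 gave 4412 and 2872. For 7.5 against 0.7 µM, 0 genes passed without the block and with each library left out, 29 passed without the filter on low counts, 657 by DESeq2 and 1967 with the replicate block. With the block as the base, 3006 passed by DESeq2 and 3391 without the filter, and between 754 and 5613 with 1 library left out. Of 389 list members and other genes chosen by rule, the fitted change against the stem cells took the other sign under at least 1 of these settings for 48, of which 0 had passed; PAX8 went from 0.07 to −0.08 on the log2 scale with the block within day 11. The 2 libraries a group limit all calls, and the cause of the differences between settings was not tested.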
